A study of Mus musculus with 6 samples.

Results

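The genes described here are 46 mouse genes of DNA replication, chosen by name from a list that covers origin licensing, the replicative helicase, the polymerases, the sliding clamp and the supply of nucleotides. All 46 are among the 16279 genes that the bulk RNA-seq count tables list in at least 1 cell type. Each of the 46 is listed for both cell types and passed the filter on low counts, and the lowest count of any of them in a library was 31. The study derived mouse embryonic stem cells (mESCs) from the blastocysts of C57BL/6J mothers and CAST/EiJ fathers, used male F1 lines and grew them in 2i medium with LIF, which holds them in a naive pluripotent state. From the mESCs it made cardiac precursor cell cultures (CPCCs) by way of embryoid bodies in medium with ascorbic acid, followed by passages in medium with EGF and FGF2. Both groups share strain and sex, and differ in cell type and culture medium, with 3 libraries each. Per the study's methods the CPCCs are heterogeneous cultures that came from the same lines as the mESCs, so the CPCC libraries are neither a pure cell type nor unrelated to the mESC libraries.

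Reads of polyA-selected RNA were assigned to genes by the authors, who deposited estimated counts. A library held 6442639 to 6907330 counts among the mESCs, and 8468819 to 11436062 among the CPCCs. Levels are given as normalized counts per 1000000 (CPM), in the order of the columns: S01, S02 and S03 for mESCs, then S04, S05 and S06 for CPCCs. Since these columns are not numbered by replicate, a CPCC library could not be matched to the mESC line it came from. As a check of the labels, 10 of 10 pluripotency markers were listed for both cell types and all 10 were lower in CPCCs, with summed levels of 6645, 6471 and 6440.4 per 1000000 counts in mESCs and 144, 300.4 and 426 in CPCCs. Of 10 mesenchymal markers, 5 were listed for both cell types and 5 for CPCCs alone, and their sum was 101, 103 and 136 per 1000000 in mESCs against 19002, 19983 and 14525 in CPCCs. Of 10 cardiac markers, 9 were listed for CPCCs, and the sum of the 10 was 4.19, 3.97 and 4.63 per 1000000 in mESCs against 391, 130.0 and 157 in CPCCs. The sarcomere gene *Tnnt2* was called higher in CPCCs (1.24, 1.18 and 2.34 CPM against 103, 24.0 and 28.3 CPM), and *Actc1*, *Myh6*, *Myh7*, *Mef2c* and *Hand2* were listed for CPCCs alone, *Actc1* with 2823, 704 and 747 counts. The early cardiac factors were low: *Nkx2-5*, listed for CPCCs alone, had 16, 0 and 8 counts, *Isl1* and *Gata4* were not called, and *Tbx5* was listed for mESCs alone. Of 6 neural markers, all were listed for CPCCs, with a sum of 41.1, 47.8 and 46.2 per 1000000 in mESCs against 506, 572 and 584 in CPCCs. The endoderm markers *Afp*, *Ttr* and *Apoa1* were listed for neither cell type, and the other 3 of that list summed to 1.71, 2.06 and 7.09 per 1000000 in mESCs against 47.3, 53.6 and 32.4 in CPCCs.

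A cell copies its genome once per division. In G1 phase the origin recognition complex (ORC), CDC6 and CDT1 load the MCM2-7 helicase onto origins, a step called licensing, and geminin blocks CDT1 once S phase has begun. CDC45 and the GINS complex then turn the loaded ring into an active helicase, the polymerases copy the strands behind it, and the clamp PCNA holds them on the template. mESCs are known for a short G1 phase and a large share of cells in S phase, while many differentiating cells spend more time in G1. E2F transcription factors, held back by RB proteins and released by cyclin-dependent kinases, drive many of the genes of this group.

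Nearly the whole group was lower in CPCCs than in mESCs. Of the 46 genes, 40 fell and 0 rose, and 6 did not pass the threshold (edgeR's quasi-likelihood test, Benjamini-Hochberg adjusted p under 0.05 over all 12471 genes tested). Over all genes tested, 29.7% were lower and 31.7% were higher in CPCCs. At an unadjusted p under 0.05, 1 of the 46 genes was higher and 40 were lower, and DESeq2 called 0 higher and 40 lower. The falls were between 1.71-fold in *Orc3* and 7.88-fold in *Orc1*. Called falls of 2-fold or more made up 38 of the 46, against 19.5% of all genes tested, and 20 of these fell at least 4-fold, against 6.87% of all genes tested. The median log2 fold change of the group was -1.80, against 0.03 for all genes tested. In 41 of the 46 genes every CPCC library lay below every mESC library, as it did in 34.5% of all genes tested. Summed over the group, the counts came to 11826, 12313 and 11452 per 1000000 in mESCs and to 1827, 3386 and 4612 per 1000000 in CPCCs. In bulk libraries, fewer cells of a kind (here cells in S phase) and less RNA per cell cannot be told apart. The plot of levels by library shows the separation gene by gene.

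**Figure D1:**
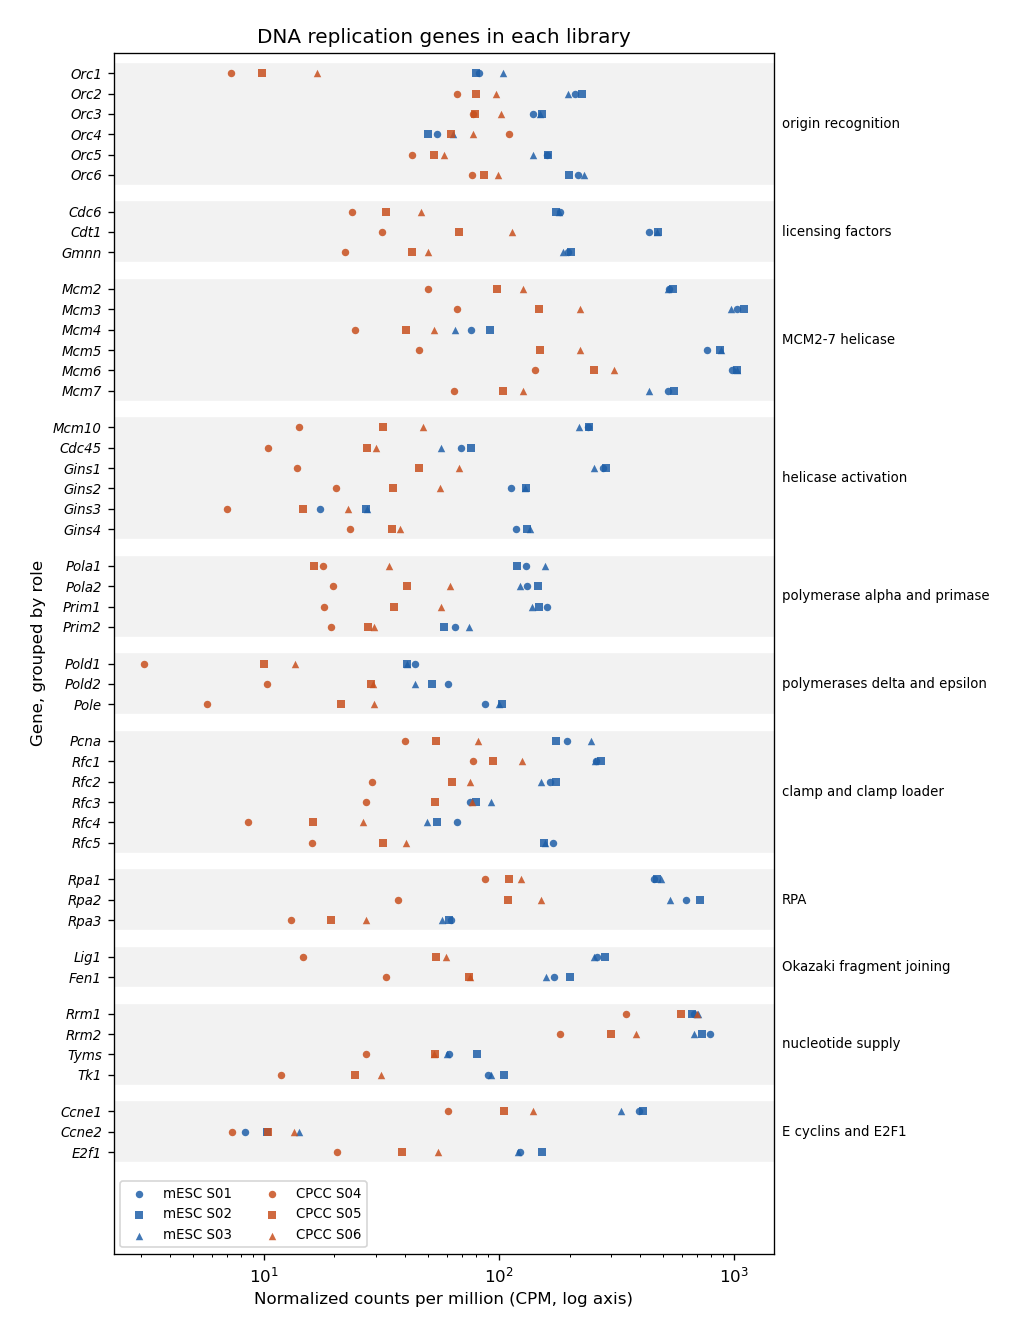
Level of each of the 46 DNA replication genes in each library, on a log axis of normalized CPM, with genes grouped by role (blue: the 3 mESC libraries; orange: the 3 CPCC libraries). In 41 genes all orange points lie left of all blue points, and *Orc4*, *Gins3*, *Rfc3*, *Rrm1* and *Ccne2* overlap.

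Among the 6 genes of the origin recognition complex, which marks the sites where replication can start, 5 fell and *Orc4* did not pass the threshold. *Orc1*, the subunit whose level rises and falls with the cell cycle in many cells (chromosome 4, 108579454 to 108614832 on GRCm38), stood at 82.2, 80.2 and 105 CPM in mESCs against 7.26, 9.82 and 16.8 CPM in CPCCs. Its fall of 7.88-fold (log2 fold change -2.98, standard error 0.31, edgeR adjusted p = 5.92e-05) was the largest of the 46, and the ranges of the cell types were far apart. *Orc5* went from 160.2, 162 and 139.7 CPM to 42.9, 53.2 and 58.7 CPM (log2 fold change -1.58, standard error 0.18, edgeR adjusted p = 9.47e-05). *Orc2* went from 211, 227 and 196 CPM to 66.1, 80.2 and 97.5 CPM (log2 fold change -1.38, standard error 0.19, edgeR adjusted p = 0.000235). The remaining called subunits changed by less, *Orc6* by a log2 fold change of -1.30 and *Orc3* by -0.78. *Orc1* thus changed from a log2 count ratio to *Orc4* of 0.59, 0.68 and 0.72 in mESCs to one of -3.92, -2.67 and -2.20 in CPCCs, a pair chosen after the values were seen.

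The 3 licensing factors all fell by 5.12-fold or more. *Cdt1*, which brings the helicase to the origin (chromosome 8, 122568015 to 122573131), had 435, 474 and 469.8 CPM in mESCs against 32.0, 68.0 and 114 CPM in CPCCs (log2 fold change -2.69, standard error 0.39, edgeR adjusted p = 0.000356). Its CPCC libraries spread widely, with S06 the highest and S04 the lowest, yet all lay far below the mESC libraries. *Cdc6*, the ATPase that loads the helicase together with ORC, had 183, 175 and 181 CPM and 23.7, 33.0 and 46.6 CPM (log2 fold change -2.38, standard error 0.25, edgeR adjusted p = 5.48e-05). *Gmnn* encodes geminin, the inhibitor of CDT1, and it fell alongside its target from 197, 203 and 188 CPM to 22.2, 42.9 and 49.9 CPM (log2 fold change -2.36, standard error 0.28, edgeR adjusted p = 0.000123). The log2 count ratio of *Cdt1* to *Gmnn* was 1.14, 1.22 and 1.32 in mESCs and 0.53, 0.66 and 1.20 in CPCCs, so it overlapped between the cell types.

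The 6 genes of the MCM2-7 ring, the motor that unwinds the helix ahead of the fork, all fell. *Mcm3* (chromosome 1, 20803014 to 20820214), the most abundant of the 46 per length in mESCs, went from 1032, 1104 and 972 CPM to 66.5, 149 and 222 CPM, a fall of 7.12-fold (log2 fold change -2.83, standard error 0.37, edgeR adjusted p = 0.000213). *Mcm5* (chromosome 8, 75109509 to 75128440) went from 765, 874 and 879 CPM to 45.7, 149.5 and 222 CPM (log2 fold change -2.60, standard error 0.46, edgeR adjusted p = 0.0012). *Mcm2* went from 531, 552 and 523 CPM to 49.9, 98.1 and 126 CPM (log2 fold change -2.55, standard error 0.30, edgeR adjusted p = 0.000121). In all 3 genes the CPCC libraries lay far below the mESC libraries and were in the order S04, S05, S06 from low to high. *Mcm7* and *Mcm6* followed with log2 fold changes of -2.36 and -2.11. *Mcm4* (chromosome 16, 15623897 to 15637401) had the smallest fall of the ring. Its levels were 76.00, 91.8 and 64.9 CPM in mESCs against 24.6, 40.3 and 53.2 CPM in CPCCs (log2 fold change -0.98, standard error 0.28, edgeR adjusted p = 0.0138). Its groups did not overlap, but the gap between the lowest mESC library and the highest CPCC library was smaller than the range within either cell type, and without the mESC library S02 it no longer passed (edgeR adjusted p = 0.0579).

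Promoter windows of *Mcm6* and *Mcm5* are shown because each holds several written-out E2F words before its start, *Mcm6* the most of the group. RefSeq windows of 300 bases, from 250 before to 50 after a start (GRCm38.p6), were matched by symbol for 37 of the 46 genes. They were searched on both strands for TTTCCCGC, TTTCGCGC, TTTGCCGC and TTTGGCGC, which are forms of the site that E2F factors prefer. *Mcm6* held 3 words, and *Mcm3*, *Mcm5*, *Mcm7* and *Rfc3* held 2 each, while *Mcm2* and *Mcm10* held none. The words of *Mcm3* lay in the 50 bases after the start and those of *Mcm7* partly so, and they are not printed. The 250 bases before the start of *Mcm6* (chr1:128359706-128359955, minus strand) and of *Mcm5* (chr8:75109259-75109508, plus strand) are given 5′ to 3′ in the direction of the gene, with words in capitals.
Mcm6: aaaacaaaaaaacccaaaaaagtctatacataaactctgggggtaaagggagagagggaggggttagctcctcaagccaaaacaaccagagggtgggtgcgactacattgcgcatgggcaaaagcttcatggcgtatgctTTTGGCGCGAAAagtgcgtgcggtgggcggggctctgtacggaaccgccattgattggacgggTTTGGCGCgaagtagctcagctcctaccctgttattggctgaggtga
Mcm5: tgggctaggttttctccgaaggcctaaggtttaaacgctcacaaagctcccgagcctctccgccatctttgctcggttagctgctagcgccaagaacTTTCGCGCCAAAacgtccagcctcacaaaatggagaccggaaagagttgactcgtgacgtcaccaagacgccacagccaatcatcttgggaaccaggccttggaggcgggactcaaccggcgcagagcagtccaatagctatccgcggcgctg
In *Mcm6* the first capital run joins TTTGGCGC with the reverse complement of TTTCGCGC, which overlap by 4 bases, and begins 110 bases before the RefSeq start, while the last word begins 47 bases before it. In *Mcm5* the single run joins TTTCGCGC with the reverse complement of TTTGGCGC, again overlapping by 4 bases, and begins 153 bases before the start. These RefSeq starts lie 41 bases (*Mcm6*) and 60 bases (*Mcm5*) before the first GENCODE start of each gene.

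At least 1 of these words stood in the windows of 13 of the 37 matched genes (35.1%), against 2.26% of all 32851 windows and 4.86% of the 9748 tested genes with a window. The 13 were *Orc1*, *Orc3*, *Cdc6*, *Cdt1*, *Mcm3*, *Mcm5*, *Mcm6*, *Mcm7*, *Gins3*, *Pola1*, *Pold1*, *Rfc3* and *Lig1*. Of these, 11 were lower in CPCCs, with a median log2 fold change of -2.38. Of the 24 matched genes without a word, 21 were lower, with a median of -1.67. Both kinds held strong falls, since *Mcm10* and *Rpa2* had no word, and both held genes that were not called. Over all tested genes with a window, 38.4% of those with a word and 29.6% of those without were lower in CPCCs. A word is a match of letters and not a measured binding site, and a window without one says only that these letters are not in it.

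Of the 6 genes that help turn the loaded ring into an active helicase, 5 fell. *Mcm10*, which helps the helicase start and recruits polymerase alpha, went from 239, 243 and 219 CPM to 14.1, 32.1 and 47.8 CPM (log2 fold change -2.90, standard error 0.38, edgeR adjusted p = 0.000197). *Gins1*, a subunit of the GINS complex that rides with the ring, went from 277, 286 and 255 CPM to 13.8, 45.8 and 67.5 CPM (log2 fold change -2.69, standard error 0.46, edgeR adjusted p = 0.000984). Its partner *Gins4* went from 118, 132 and 135 CPM to 23.3, 35.2 and 38.2 CPM (log2 fold change -1.997, standard error 0.22, edgeR adjusted p = 7.26e-05). In these 3 genes no CPCC library came near the mESC range. *Gins2* and *Cdc45*, the latter encoding the other partner of the active ring, had log2 fold changes of -1.74 and -1.57. *Gins3*, the least abundant of the GINS genes, had 17.3, 27.2 and 27.5 CPM in mESCs against 6.96, 14.7 and 22.8 CPM in CPCCs (log2 fold change -0.70, standard error 0.41, edgeR adjusted p = 0.163). The CPCC library S06 lay within its mESC range, and without S06 the gene passed the threshold (log2 fold change -1.15, edgeR adjusted p = 0.0316).

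All 4 genes of polymerase alpha and primase, the enzyme pair that lays the RNA-DNA primers, fell. *Pola1*, the catalytic subunit, which lies on the X chromosome (chromosome X, 93304766 to 93632156), went from 131, 119 and 157 CPM to 17.9, 16.4 and 34.3 CPM (log2 fold change -2.57, standard error 0.30, edgeR adjusted p = 0.000102). *Prim1*, the catalytic primase subunit, went from 161, 148 and 139 CPM to 18.1, 35.8 and 56.6 CPM (log2 fold change -2.02, standard error 0.35, edgeR adjusted p = 0.00105). *Pola2*, the regulatory subunit of the polymerase, went from 132, 147 and 124 CPM to 19.7, 40.5 and 61.9 CPM (log2 fold change -1.72, standard error 0.35, edgeR adjusted p = 0.00248). *Prim2*, the large primase subunit, had a log2 fold change of -1.38. *Pola1* was 1 of 2 genes of the group that were lowest in S05 and not in S04, and the groups of all 4 genes were clear of each other.

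The 3 genes of the replicative polymerases delta and epsilon also fell. *Pole*, the catalytic subunit of polymerase epsilon, which copies the leading strand, went from 87.3, 103 and 100.3 CPM to 5.77, 21.2 and 29.3 CPM (log2 fold change -2.37, standard error 0.47, edgeR adjusted p = 0.00204). *Pold1*, its counterpart in polymerase delta, which copies the lagging strand, went from 43.9, 40.7 and 40.7 CPM to 3.08, 10.1 and 13.6 CPM (log2 fold change -2.23, standard error 0.44, edgeR adjusted p = 0.00211). In both, S04 lay well below S05 and S06. *Pold2*, an accessory subunit of polymerase delta, changed by less, from 61.0, 52.1 and 43.9 CPM to 10.3, 28.5 and 29.2 CPM (log2 fold change -1.21, standard error 0.36, edgeR adjusted p = 0.017), and without the mESC library S01 it did not pass (edgeR adjusted p = 0.0625).

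Of the clamp PCNA and the 5 genes of replication factor C (RFC), which loads it, 5 of 6 fell. *Rfc5* went from 170.1, 155 and 158 CPM to 16.00, 32.3 and 40.2 CPM (log2 fold change -2.45, standard error 0.31, edgeR adjusted p = 0.000159). *Pcna* went from 196, 176 and 246 CPM to 40.1, 53.8 and 81.3 CPM (log2 fold change -1.82, standard error 0.27, edgeR adjusted p = 0.000408). *Rfc4* went from 66.4, 54.6 and 49.3 CPM to 8.55, 16.1 and 26.5 CPM (log2 fold change -1.74, standard error 0.37, edgeR adjusted p = 0.00293). *Rfc2* and *Rfc1*, the large subunit, had log2 fold changes of -1.55 and -1.40. *Rfc3* had 75.5, 80.3 and 93.0 CPM in mESCs against 27.3, 53.4 and 76.9 CPM in CPCCs (log2 fold change -0.66, standard error 0.33, edgeR adjusted p = 0.106). Its S06 level lay within the mESC range, and the gene passed without S06 (log2 fold change -1.04, edgeR adjusted p = 0.0144). Thus 1 RFC subunit was not called while the other 4 were, and the difference between subunits was not tested. GENCODE lists processed pseudogenes of *Pcna*, which could share its reads.

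All 3 genes of replication protein A (RPA), which coats the single strands opened by the helicase, fell. *Rpa2*, the middle subunit (chromosome 4, 132768360 to 132778747), went from 624, 715 and 534 CPM to 37.3, 110.0 and 152 CPM (log2 fold change -2.65, standard error 0.43, edgeR adjusted p = 0.000703). *Rpa1*, the large subunit, went from 458, 473 and 488 CPM to 87.4, 110.2 and 124 CPM and had the smallest adjusted p of the 46 (log2 fold change -2.14, standard error 0.18, edgeR adjusted p = 1.51e-05). *Rpa3*, the small subunit, went from 62.7, 61.3 and 57.5 CPM to 13.1, 19.3 and 27.3 CPM (log2 fold change -1.61, standard error 0.27, edgeR adjusted p = 0.0008). The CPCC libraries of *Rpa1* lay closer together than those of *Rpa2*. Both genes for the joining of Okazaki fragments fell too. *Lig1*, the ligase that seals them, went from 262, 284 and 254 CPM to 14.7, 54.0 and 59.5 CPM (log2 fold change -2.65, standard error 0.44, edgeR adjusted p = 0.000752). *Fen1*, the nuclease that trims their flaps, went from 171, 201 and 158 CPM to 33.2, 74.9 and 75.4 CPM (log2 fold change -1.53, standard error 0.30, edgeR adjusted p = 0.00194). Of the exon bases of *Fen1*, 78.8% lie opposite the antisense gene *Gm10143*, so without a stated strand setting its counts are uncertain.

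The 4 genes of nucleotide supply split into 2 that fell and 2 that did not pass. *Tk1*, the thymidine kinase of S phase, went from 90.1, 106 and 93.0 CPM to 11.8, 24.4 and 31.5 CPM (log2 fold change -2.10, standard error 0.32, edgeR adjusted p = 0.000492). *Rrm2*, the small subunit of ribonucleotide reductase, which limits the making of deoxynucleotides in S phase, went from 794, 729.9 and 675 CPM to 182, 300.2 and 385 CPM (log2 fold change -1.34, standard error 0.25, edgeR adjusted p = 0.00158). Both sets of libraries were apart. *Rrm1*, the large subunit of the same enzyme (chromosome 7, 102441695 to 102469772), had 679.9, 665 and 704 CPM in mESCs against 348, 595 and 694 CPM in CPCCs (log2 fold change -0.32, standard error 0.23, edgeR adjusted p = 0.256). S04 was far below the mESC range, S05 somewhat below it and S06 within it, and without S04 the log2 fold change was -0.07. The log2 count ratio of *Rrm1* to *Rrm2*, a pair chosen after the values were seen, was -0.22, -0.13 and 0.06 in mESCs and 0.94, 0.99 and 0.85 in CPCCs, so the balance of the subunit mRNAs did not overlap between the cell types.

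*Tyms*, which makes thymidylate, had 61.5, 81.0 and 59.97 CPM in mESCs against 27.1, 53.7 and 52.8 CPM in CPCCs (log2 fold change -0.60, standard error 0.28, edgeR adjusted p = 0.0855). Its groups did not overlap, although it did not pass. Its processed pseudogene *Tyms-ps* was listed with 118, 111 and 99.0 CPM in mESCs against 26.4, 60.4 and 60.7 CPM in CPCCs and was called lower (log2 fold change -1.15, standard error 0.30, edgeR adjusted p = 0.00845). The counts of *Tyms* are not whole numbers in any library, and how reads that match both were treated is not given in the sources used here, so the split between gene and pseudogene is uncertain. Summed, the pair came to 179.8, 192 and 159 CPM in mESCs against 53.6, 114 and 114 CPM in CPCCs, of which *Tyms* held 38.1% ± 4.04 and 48.1% ± 2.24 (SD, n = 3 each).

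The cyclins E and E2F1 stand upstream of the fork, as partners of CDK2 and as the transcription factor of the programme. *Ccne1* (chromosome 7, 38097984 to 38107491) went from 393, 413 and 329.5 CPM to 60.7, 105 and 140.3 CPM (log2 fold change -1.89, standard error 0.28, edgeR adjusted p = 0.000432). *E2f1* went from 124, 153 and 120.2 CPM to 20.5, 38.8 and 55.4 CPM (log2 fold change -1.79, standard error 0.32, edgeR adjusted p = 0.00126). Both were lower in every CPCC library. *Ccne2* (chromosome 4, 11191351 to 11204780), the paralog of *Ccne1*, had only 8.34, 10.3 and 14.2 CPM in mESCs against 7.36, 10.4 and 13.4 CPM in CPCCs (log2 fold change -0.08, standard error 0.34, edgeR adjusted p = 0.86). S05 and S06 lay within its mESC range and S04 just below it. The sign of its change turned when S03 or S04 was left out (log2 fold change 0.16 or 0.14). The log2 count ratio of *Ccne1* to *Ccne2* was 5.57, 5.33 and 4.54 in mESCs and 3.04, 3.33 and 3.39 in CPCCs, again a pair chosen after the values were seen. Of the exon bases of *Ccne2*, 17.4% are shared with *Ints8* on the other strand, which had a log2 fold change of 0.02.

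*Orc4* (chromosome 2, 48902826 to 48950235) was the only one of the 46 with a positive log2 fold change. It had 54.5, 50.01 and 63.6 CPM in mESCs against 110.0, 62.7 and 77.5 CPM in CPCCs (log2 fold change 0.57, standard error 0.23, edgeR adjusted p = 0.0558), and S05 lay within the mESC range. It passed without S05 and in 4 other settings, with log2 fold changes between 0.56 and 0.75 there, and without S04 its log2 fold change was 0.34. Its counts are not whole numbers in any library. Its exons share 446 bases with *Acvr2a* and 136 bases with *Mbd5*, both on the other strand, and the files' strand setting is not given in the sources used here. Of these neighbours, *Acvr2a* rose in CPCCs (log2 fold change 1.46, standard error 0.24, edgeR adjusted p = 0.000717) and so did *Mbd5* (log2 fold change 2.85, standard error 0.33, edgeR adjusted p = 0.000109), and their part in the level of *Orc4* was not tested. Counts that are not whole occur in 24 of the 46 genes. Besides *Orc4* and *Tyms*, they occur in every library for *Orc3*, *Mcm7*, *Rfc4*, *Fen1* and *Ccne2*. Of the 46 genes, 17 share exon bases with another annotated gene, 15 of them with one on the other strand. Among these 15 are *Gins2*, with 67.3% of its exon bases opposite *Gse1*, and *Orc2*, with 29.8% opposite *Nif3l1*. All 6 genes that were not called are open points in the plot of changes by role.

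**Figure D2:**
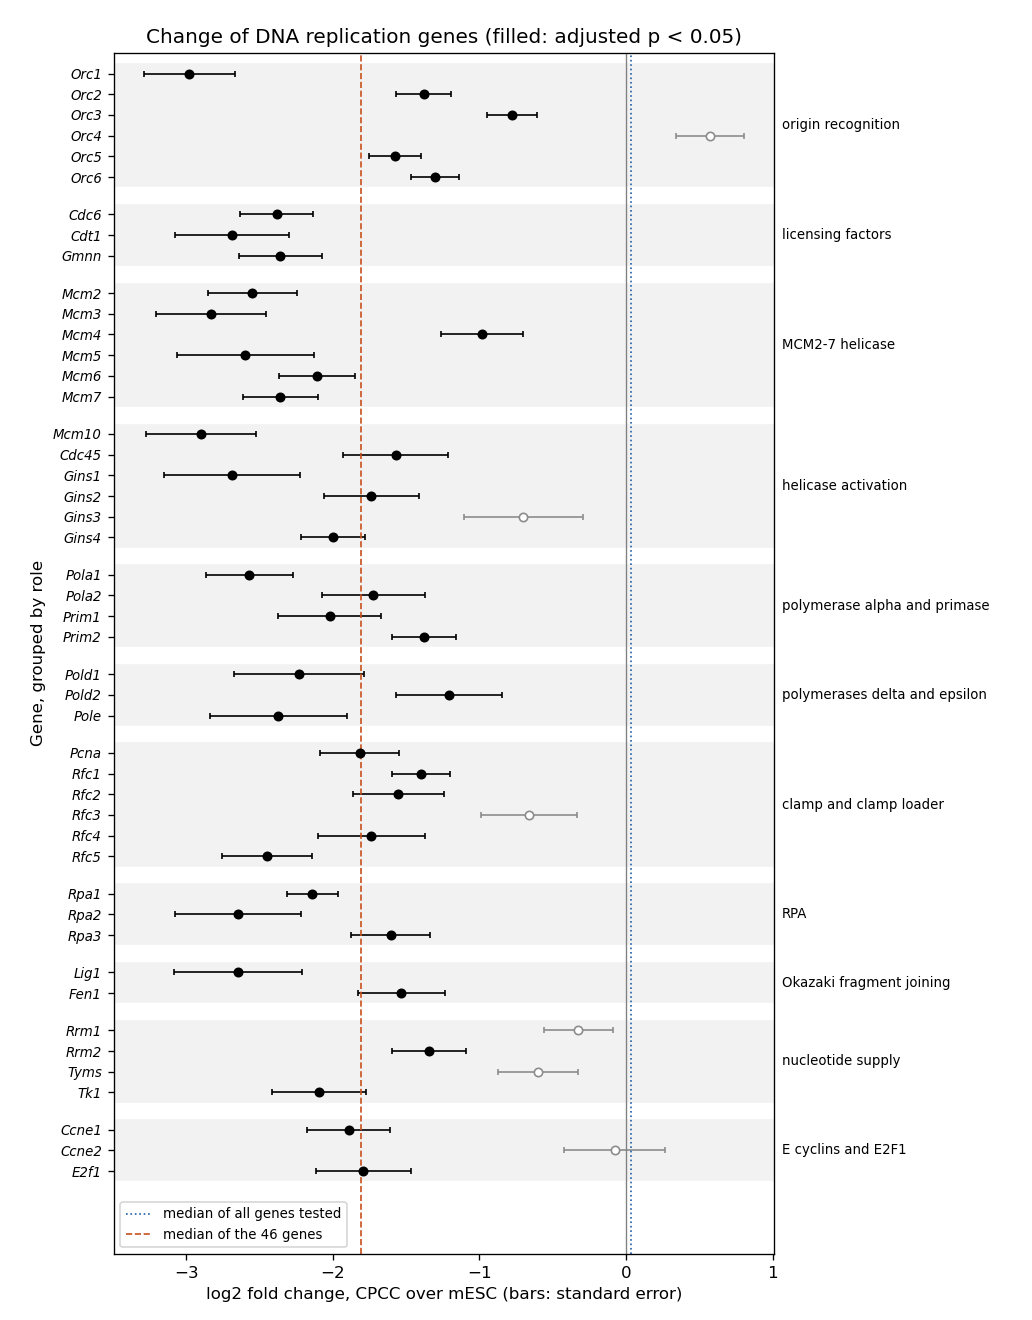
log2 fold change of each of the 46 genes in CPCCs over mESCs, with its standard error, grouped by role (filled points: edgeR adjusted p under 0.05; open points: not called). The 3 licensing factors lie between -2.69 and -2.36, the dashed line marks the median of the 46 genes and the dotted line that of all genes tested, and *Orc4* is the only point right of 0.

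Set side by side by role, the median log2 fold change was -2.45 in the MCM2-7 ring, -2.38 in the licensing factors, -2.23 in polymerases delta and epsilon, -2.14 in RPA and -2.09 in the joining of Okazaki fragments. It was -1.87 in helicase activation, -1.87 in polymerase alpha and primase, -1.79 in the cyclins E and E2F1, -1.65 in the clamp and its loader, -1.34 in origin recognition and -0.97 in nucleotide supply. These are medians of 2 to 6 genes and the differences between roles were not tested. Per 1000000 counts, the MCM2-7 genes together took 3932, 4216 and 3865 in mESCs and 347, 771 and 1092 in CPCCs. The genes of nucleotide supply together took 1633, 1583 and 1517 and 500.4, 944 and 1198, so in every CPCC library they took more than the MCM2-7 genes, whereas in every mESC library they took less.

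To compare genes with each other, levels were divided by the length of all annotated exons of a gene (CPM per kb, GENCODE vM21). The highest of the 46 in mESCs were *Mcm3* at 276 ± 17.6, *Rrm2* at 265 ± 21.4 and *Mcm6* at 218 ± 5.87 CPM per kb (SD, n = 3). In CPCCs the highest were *Rrm2* at 104 ± 36.8, *Mcm6* at 50.5 ± 18.2 and *Rrm1* at 49.5 ± 16.2, and *Mcm3* came in place 4 at 38.8 ± 20.7 CPM per kb. In mESCs *Mcm3* and *Rrm2* lay within 1 SD of each other and above *Mcm6* by more than 1 SD. In CPCCs *Rrm2* lay above the next by more than 1 SD, and *Mcm6*, *Rrm1* and *Mcm3* lay within 1 SD of each other. *Rrm1* had been in place 18 in mESCs, at 62.0 ± 1.76 CPM per kb. Lengths include exons of rare transcripts, so a gene with many isoforms reads low on this scale.

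Subunits of a complex that works in fixed proportions differed in mRNA level, in some complexes by a smaller ratio in CPCCs, and the ratios are given as a description without a test. In the MCM2-7 ring the highest subunit stood 12.8 times above the lowest in mESCs (*Mcm3* over *Mcm4*) and 4.61 times in CPCCs (*Mcm6* over *Mcm4*). In GINS the ratio of *Gins1* to *Gins3* was 20.3 in mESCs and 5.11 in CPCCs. In RPA that of *Rpa2* to *Rpa3* was 3.92 and 1.90. The ratio of the highest to the lowest was about as wide in both cell types in ORC, at 11.7 and 10.9, but the lowest subunit was *Orc4* in mESCs, at 7.52 ± 0.929 CPM per kb, and *Orc1* in CPCCs, at 3.25 ± 1.43. The 5 RFC genes lay within 1.89 times of each other in mESCs and within 2.61 times in CPCCs. *Mcm4* and *Gins3*, the lowest of their complexes in both cell types, were also those that fell least in them, as the plot per length shows.

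**Figure D3:**
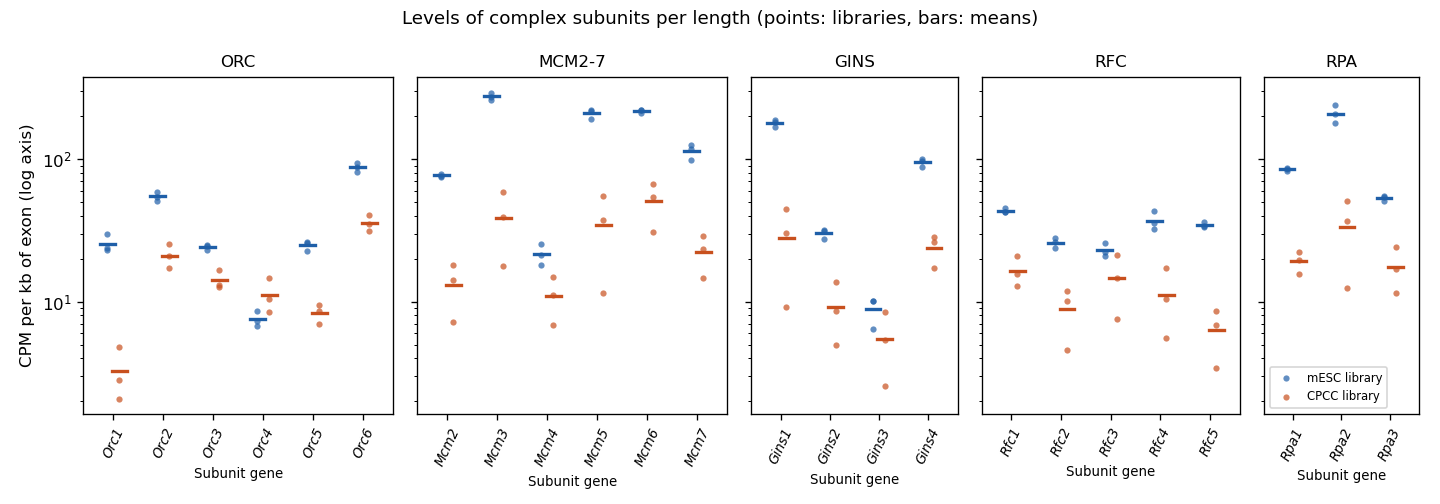
Levels of the subunit genes of ORC, the MCM2-7 ring, GINS, RFC and RPA in CPM per kb of exon on a log axis (points: libraries; bars: means of the 3 mESC libraries in blue and of the 3 CPCC libraries in orange). *Mcm4* lies lowest in its ring in both cell types, and the lowest ORC gene is *Orc4* in mESCs and *Orc1* in CPCCs.

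The CPCC libraries did not fall alike. In 43 of the 46 genes S04 was the lowest CPCC library and S06 the highest, an order found in 24.9% of all genes tested. The median difference from the mESC mean, on the log2 CPM scale, was -2.64 in S04, -1.82 in S05 and -1.35 in S06, and it was 0.02 to 0.04 over all genes tested. Without S04, 40 of the 46 genes were lower, with a median log2 fold change of -1.53. Of the mitosis genes, 18 of 18 had the same order of libraries. The pluripotency markers had it in 8 of 10 genes, with sums per 1000000 of 144, 300.4 and 426. Of the 5 mesenchymal markers listed for both cell types, 0 had this order and 2 had the opposite one, which was found in 24% of all genes tested. The sums per 1000000 of the 10 mesenchymal markers were 19002, 19983 and 14525. The cardiac sum was highest in S04, at 391 against 130.0 and 157 per 1000000. The neural sums were 506, 572 and 584 per 1000000. Of the 6 neural markers, *Sox1* (38, 193 and 444 counts), *Pou3f2* (48, 143 and 279 counts) and *Pax6* (46.5, 117 and 159 counts) were lowest in S04 and highest in S06, and *Neurod1* (108, 53 and 34 counts) had the opposite order. *Tubb3* (215, 118 and 133 CPM) was highest in S04, and *Nes* (336, 410 and 329 CPM) was highest in S05 and lowest in S06. S04 was also the library with the most counts. Whether the mix of cells in a culture sets the level of the replication genes was not tested.

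**Figure D4:**
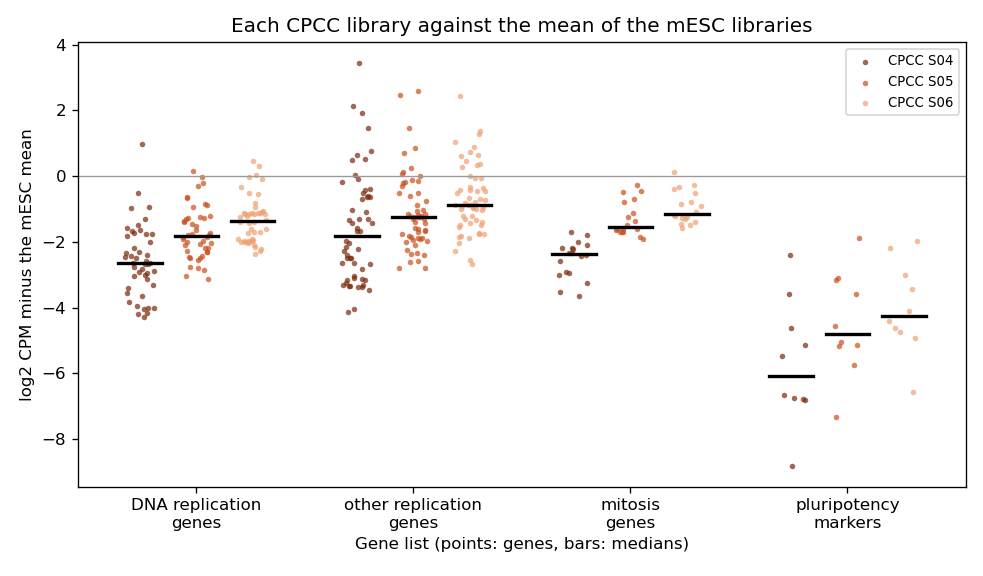
Difference of each CPCC library from the mean of the mESC libraries in log2 CPM, for the 46 DNA replication genes, the 56 other replication genes, the 18 mitosis genes and the 10 pluripotency markers (points: genes; black bars: medians). In all 4 lists the median is lowest in S04 and highest in S06, at -2.64 and -1.35 for the 46 genes.

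A second list held 56 other genes of replication, such as firing kinases, further polymerase subunits and chromatin assembly factors, all listed for both cell types. Of these, 38 fell, 5 rose and 13 did not pass, with a median log2 fold change of -1.30. The largest falls were in *Ticrr* (log2 fold change -2.94), which helps CDC45 onto the helicase, in *Rnaseh2b* (-2.82), a subunit of the nuclease that removes ribonucleotides, in *Tipin* (-2.74), which steadies the fork, and in *Uhrf1* (-2.49), which links replication to the upkeep of DNA methylation. *Ticrr* had 269, 275 and 190.4 CPM in mESCs against 14.4, 40.3 and 41.3 CPM in CPCCs (log2 fold change -2.94, standard error 0.38, edgeR adjusted p = 0.000184). Of 15 firing and fork factors 13 fell, and of 5 chromatin assembly factors 4 fell. The 15 S phase kinases and E2F pathway genes were mixed, with 7 lower, 3 higher and 5 not called.

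The strongest rise of that list was in *Rb1*, the retinoblastoma protein that holds E2F factors back. It had 13.4, 11.5 and 10.5 CPM in mESCs against 131, 72.6 and 64.1 CPM in CPCCs, a rise of 7.55-fold (log2 fold change 2.92, standard error 0.30, edgeR adjusted p = 5.73e-05). The other 4 genes that rose are named here after their values were seen. They were the polymerase delta subunit *Pold4* (log2 fold change 2.01), the RB relative *Rbl2* (1.25), the repressor *E2f6* (0.71) and *Samhd1* (0.69), which breaks down deoxynucleotides. *Pold4* had 6.49, 4.41 and 7.02 CPM in mESCs against 23.0, 33.5 and 15.7 CPM in CPCCs, so it ran against the other polymerase delta genes. The number of genes that rose dropped to 3 without S02 and to 3 without S05. *Rbl2* and *Samhd1* were each called in 3 of 6 fits with 1 library left out, and *Rb1*, *Pold4* and *E2f6* in all 6.

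Of 6 tested genes of cyclin-dependent kinase (CDK) inhibitors, which block entry into S phase, 3 rose and 3 were not called. *Cdkn2b*, an inhibitor of CDK4 and CDK6, had 7.26, 5.88 and 7.17 CPM in mESCs against 625, 439 and 308 CPM in CPCCs (log2 fold change 6.07, standard error 0.31, edgeR adjusted p = 1.88e-06). *Cdkn1a*, which encodes p21, an inhibitor of CDK2 that also binds PCNA, had 269, 254 and 289.9 CPM in mESCs against 2364, 1672 and 1151 CPM in CPCCs (log2 fold change 2.67, standard error 0.25, edgeR adjusted p = 3.29e-05). Both were highest in S04 and lowest in S06, the reverse of the order in the replication genes. This reverse order held in 2 of the 6 tested CDK inhibitors, and in 24% of all genes tested. *Cdkn2c* had the order of the replication genes. *Cdkn1c* had 2.63, 1.18 and 1.90 CPM and 65.1, 6.67 and 9.05 CPM (log2 fold change 3.82, standard error 0.91, edgeR adjusted p = 0.00553), with S04 far above the other CPCC libraries, and without S04 its log2 fold change was 2.06. *Cdkn1b*, *Cdkn2c* and *Cdkn2d* were not called, with log2 fold changes of -0.08, 1.08 and -0.24. *Cdkn2a* was listed for CPCCs alone, with 44.0, 37 and 30 counts.

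Mitosis genes, which act after replication is complete, gave a second view of dividing cells. Of 18, 15 fell, 0 rose and 3 (*Aurkb*, *Cenpe* and *Mki67*) did not pass, with a median log2 fold change of -1.63. Of the 15, *Plk1* and *Kif11* were called in 2 of 6 fits with 1 library left out. No mitosis gene was higher at an unadjusted p under 0.05 by edgeR or at an adjusted p under 0.05 by DESeq2. The largest falls were in *Nusap1* (log2 fold change -2.07), *Ccnb2* (-1.97), *Aurka* (-1.91), *Ccnb1* (-1.88) and *Bub1b* (-1.86), which serve the spindle, the mitotic kinase CDK1 and the checkpoint. *Mki67*, a common mark of cycling cells, named after its values were seen, had 376, 440.3 and 400.3 CPM in mESCs against 100.4, 337 and 445 CPM in CPCCs (log2 fold change -0.46, standard error 0.43, edgeR adjusted p = 0.367), with S06 above the mESC range. Differences in size of change between replication and mitosis genes were not tested. The cumulative plot sets the lists side by side.

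**Figure D5:**
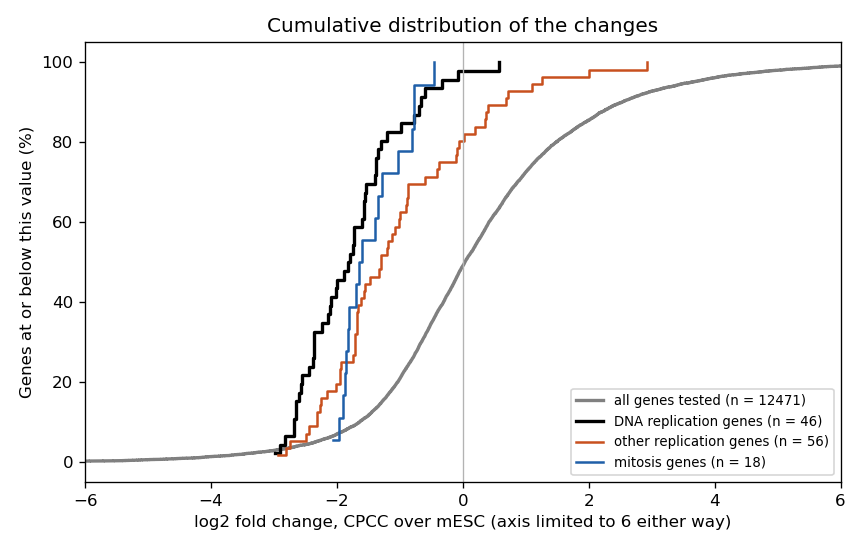
Share of genes at or below each log2 fold change (CPCCs over mESCs) for all 12471 genes tested, the 46 DNA replication genes, the 56 other replication genes and the 18 mitosis genes. The curves of the replication and mitosis genes lie left of that of all genes, with medians of -1.80, -1.30 and -1.63 against 0.03.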

How the data were processed

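Bulk RNA-seq libraries were made by the authors from polyA-selected RNA of 3 mESC and 3 CPCC cultures with the SMART-Seq v4 and Nextera XT kits. The authors deposited estimated counts per gene, not normalized, in 1 table per cell type, and each table lists genes with a sum of at least 10. The submitters' processing notes name STAR 2.7 and mm10. The counter and its strand setting are not given in the sources used here. Between 17.9% and 21.5% of values are not whole, and counts were rounded.

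The 13001 genes in both tables were filtered with filterByExpr in edgeR 4.0.16 (R 4.3.3), which left 12471, and cell types were compared with TMM normalization and the quasi-likelihood test (3 libraries each). CPM are counts per 1000000 after TMM over these genes. Sums per 1000000 use all counts of a library. The standard error is the log2 fold change over the square root of F. Alternatives were DESeq2 1.42.0 (the study used an earlier version), other normalizations and filters, and leaving out each library. On simulated counts for 13001 genes with 200 changed, edgeR recovered 150, among them 123 of the 136 changed at least 4-fold, and called 8 others. Far more genes were called in these data (29.7% lower and 31.7% higher), so recovery and false calls here may differ. Figures were drawn with matplotlib 3.10.9.

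Of the 46 genes, full values are given for up to 3 called genes per role with the largest changes. They are also given for every gene that was not called or changed its call or sign. Of the other replication genes and the mitosis genes, the 5 called genes of each list with the largest changes are named. Many of these have a log2 fold change alone. All CDK inhibitors are named, and further genes of these lists were named after their values were seen. The members and lists were chosen with earlier results of these data known. Replicates are the study's biological replicates, and all libraries differed by more than sampling noise. Allele-specific and single-cell data of the study were not analysed here.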

Additional observations from a re-analysis of the deposited data

How the results depend on the processing

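The number of the 46 genes that fell was 40 as reported and with DESeq2, each other normalization and each other filter, and 39 to 42 with 1 library left out. The number that rose went from 0 to 1 with upper-quartile normalization, with library totals without TMM, with at least 10 counts in every library and with genes of either table at 0 counts where missing, and was 0 to 1 with 1 library left out. In each case the gene was *Orc4*, with a log2 fold change of 0.57, 0.56, 0.65, 0.60 and, without S05, 0.75. The median log2 fold change lay between -2.16 and -1.53 with 1 library left out. Of the 56 other genes, 33 to 39 fell and 3 to 5 rose with 1 library left out. *Ccne2* lay between -0.30 and 0.16 with 1 library left out, and turned from -0.08 to 0.16 without S03 and to 0.14 without S04. Call and sign held in all settings run for 40 of the 46 genes. Setting missing genes to 0 moved the median of all genes from 0.03 to 0.17, with 13630 genes tested. The causes were not tested.

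No paired analysis was possible because the columns carry no replicate numbers. With 3 libraries per cell type, a gene with a wide spread in CPCCs, such as *Gins3* or *Rfc3*, is measured with low precision, and p-values measure the spread between these libraries alone.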
